A study of Mus musculus with 9 samples.

Results

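The tight junction genes described here are 7 claudins (Cldn3, Cldn4, Cldn5, Cldn6, Cldn7, Cldn9 and Cldn23), occludin (Ocln) and the scaffold gene Tjp1, which encodes ZO-1. They were taken by gene symbol, and all 9 have a row among the 24819 gene symbols of the table. Levels were measured by messenger RNA sequencing of E14, a line of mouse embryonic stem cells grown here on gelatin, in 9 libraries, 3 per medium. The ES group was kept in DMEM with fetal bovine serum and LIF (leukemia inhibitory factor), the 2iLIF group in N2B27 with LIF and the inhibitor pair 2i, which block MEK and GSK3, and the EPSCM group in expanded potential stem cell medium. The labels name no genetic change and no treatment other than the medium, and the design text calls the cultures stable in their medium. All groups come from 1 cell line, and the labels give neither passage nor time in the medium. Whether the libraries of 1 medium are separate cultures is not stated, so p-values reflect library-to-library spread alone, possibly technical.

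Tight junctions seal the space between neighbouring epithelial cells near their apical side. Claudins are small proteins with 4 passes through the membrane whose outer loops meet those of the next cell and set which ions pass between cells. Occludin belongs to a separate membrane family that lines the same strands, and ZO-1 binds the tails of many claudins through PDZ domains and ties them to actin. In the mouse embryo these junctions first form in the outer cells at compaction, and naive embryonic stem cells keep a compact, epithelial form.

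Values were FPKM, that is, fragments scaled to transcript length and to library size, so levels of different genes can be compared per length. Below, a level is a mean in FPKM ± SD (n = 3 libraries), and a difference is one of means of log2(FPKM + 1) ± SE, a scale that shrinks differences at low levels. Calls needed both a limma p, adjusted over 12330 tested genes, under 0.05 and a difference of 1 or more, the fold limit below. Testing required 1 FPKM in 3 or more libraries, which 8 of the 9 genes reached. Cldn9 passed only through its EPSCM libraries, and Cldn5 only through EPSCM and ES replicate 1. With those passes, EPSCM had to lie above 2iLIF in both genes and above ES in Cldn9. Their tests are therefore not independent of the filter. In libraries of bulk RNA, fewer cells with a transcript and less of it per cell cannot be told apart.

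Library sums ranged from 546636 to 600728 FPKM, and 1 fragment in a transcript of 1 kilobase was worth about 0.0367 to 0.0558 FPKM, a rough estimate from the smallest steps in the table. By that estimate Cldn4 rested on 1586 to 4160 fragments per library and Cldn6 on 49.2 to 534.8. The third principal component, with 6.46% of the variance, set apart 1 library of each medium: ES replicate 1, 2iLIF replicate 1 and EPSCM replicate 2. The embryonic stem cell markers Pou5f1, Sox2, Nanog, Zfp42 and Esrrb were all above 1 FPKM in every medium. Their sum was 2552 to 2983 FPKM in ES libraries, 2255 to 2584 in 2iLIF and 1391 to 1614 in EPSCM. In EPSCM, 2 of the 5 were called lower than in ES, where 7.97% of all tested genes were called lower. Pou5f1 stood at 1352, 1064 and 627 FPKM in ES, 2iLIF and EPSCM, and Zfp42 at 534, 404 and 163. The 6 fibroblast markers summed to at most 0.450 FPKM, and the 4 markers of stratified epithelium to at most 0.369.

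The claudins differed among the media in their make-up. In 2iLIF, Cldn6 stood at 0.124 times its mean level in ES, and Cldn5, Cldn7 and Cldn9 were at their lowest, while Cldn4 was at its highest. In EPSCM, Cldn6 overlapped its ES values, and Cldn5, Cldn7, Cldn9, Ocln and Tjp1 were above both other media in every library. Limma's moderated F statistic over the 3 media gave adjusted p-values from 2.58e-08 for Cldn6 to 0.00994 for Cldn3. Apart from Cldn5 and Cldn9, whose testing itself depended on their high medium, 6 of 6 genes were under 0.05. The share of all tested genes under 0.05 by this F statistic is not given here. In the single comparisons of 2 media it was 67% to 73.1%, so the count is not read as particular to these genes.

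**Figure D1:**
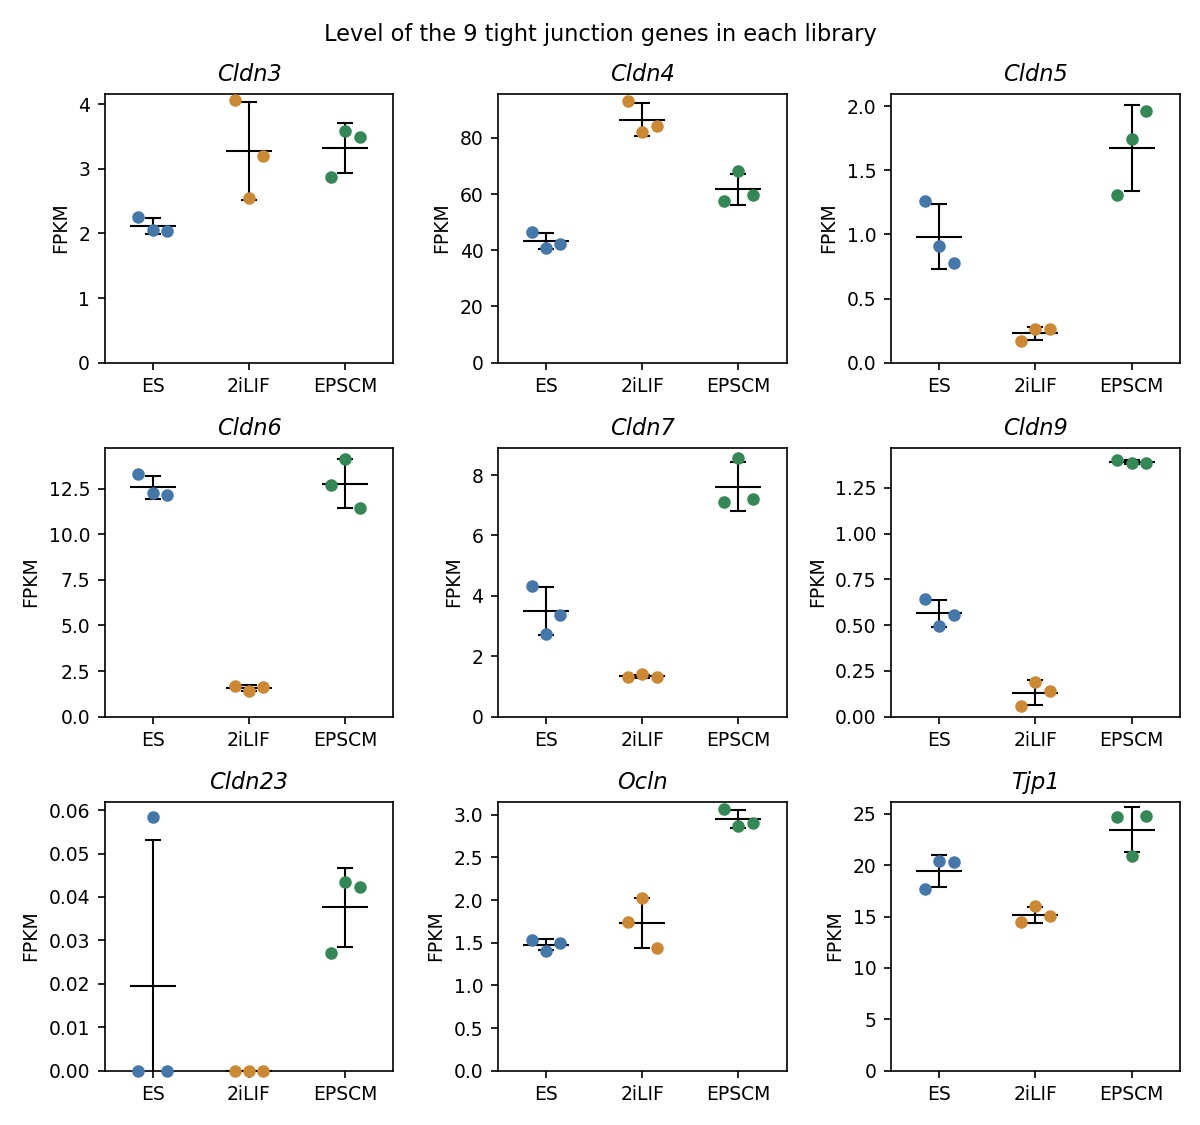
Level in FPKM (linear axes from 0, each panel with its own scale) of the 9 genes in every library, by medium; points are libraries in replicate order, the wide bar is the mean and the whiskers are 1 SD (n = 3; the lower one of Cldn23 in ES is cut at 0). Cldn6, Cldn5, Cldn7 and Cldn9 are lowest in 2iLIF, Cldn4 is highest there at 82.3 to 93.2 FPKM, and Cldn23 stays under 0.1 FPKM.

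Cldn4, a barrier-forming claudin of simple epithelia, was by far the most abundant of the 7 claudins per length. It stood at 46.4, 40.8 and 42.3 FPKM in ES replicates 1 to 3, at 93.2, 82.3 and 84.1 in 2iLIF, and at 57.4, 68.0 and 59.6 in EPSCM. The 3 media did not overlap, with 2iLIF on top, EPSCM between and ES lowest. The difference of 2iLIF from ES was 0.99 ± 0.08 (limma adjusted p = 7.43e-06), just short of the fold limit, with means of 86.5 ± 5.83 and 43.2 ± 2.87 FPKM. EPSCM lay above ES by 0.50 ± 0.08 (adjusted p = 4.62e-04) and below 2iLIF, at -0.48 ± 0.08 (adjusted p = 6.89e-04).

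The call of Cldn4 for 2iLIF against ES turned on small shifts. Its difference passed the limit without ES replicate 1 (1.04), without 2iLIF replicate 2 (1.02), without 2iLIF replicate 3 (1.01), with a pseudocount of 0.1 (1.00) and with quantile normalization (1.07). The summed level of the trophectoderm markers had the same order, though no single marker did: the 8 genes, of which 4, 5 and 4 had a mean of at least 1 FPKM in ES, 2iLIF and EPSCM, summed to 29.5 to 34.0 FPKM in ES libraries, 52.8 to 62.8 in EPSCM and 76.5 to 88.1 in 2iLIF. Krt8 made up most of the 2iLIF sum, at 6.90, 47.6 and 6.16 FPKM in ES, 2iLIF and EPSCM, and Tfap2c most of the EPSCM sum, at 18.2, 21.7 and 37.4. Eomes (1.03, 3.30 and 4.39), Krt18 and Gata3 (0.0331, 0.290 and 0.613) were also highest in EPSCM, Cdx2 was highest in 2iLIF (0.108, 2.85 and 0.0411), and Elf5 was at most 0.0487 in any library. The part of those markers in the Cldn4 result was not tested.

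The sequence upstream of Cldn4 is shown because Cldn4 took the opposite direction to Cldn5, Cldn6, Cldn7 and Cldn9. Printed are the 250 bases before its start, from RefSeq on GRCm38.p6 (chr5:134946935-134947184, minus strand). Capitals mark TGACTCA, the core motif of AP-1 factors, and CACCTG, the E-box bound by Snail and ZEB repressors; motifs were searched on both strands and chosen after the sequences had been seen. CACCTG or its complement CAGGTG also occurs upstream of Cldn6 and Cldn7, which took the other direction.
Cldn4: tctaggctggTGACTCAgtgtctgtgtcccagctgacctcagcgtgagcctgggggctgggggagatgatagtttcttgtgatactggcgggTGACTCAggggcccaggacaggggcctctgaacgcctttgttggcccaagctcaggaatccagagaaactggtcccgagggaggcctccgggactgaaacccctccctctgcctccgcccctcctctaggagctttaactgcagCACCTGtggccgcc
TGACTCA occurs at 2 places, at -240 to -234 and at -158 to -152 from the start, and CACCTG at -14 to -9. Of 32851 RefSeq promoters cut to the same 250 bases, 4.46% hold TGACTCA or TGAGTCA at least once and 0.167% at least 2 times. CACCTG or CAGGTG is far more common, in 17.2%. Such a match is a description of letters and not evidence of binding.

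Cldn3, the neighbour of Cldn4 on chromosome 5 in the RefSeq gene order and its close relative in function, was expressed at a far lower level. Its libraries stood at 2.25, 2.05 and 2.04 FPKM in ES, at 4.06, 2.56 and 3.20 in 2iLIF and at 2.88, 3.59 and 3.50 in EPSCM. All libraries of 2iLIF and EPSCM lay above all ES libraries, while 2iLIF and EPSCM overlapped. The difference was 0.47 ± 0.12 for EPSCM against ES (limma adjusted p = 0.00751) and 0.44 ± 0.12 for 2iLIF against ES (adjusted p = 0.0115). Between EPSCM and 2iLIF it was 0.03 ± 0.12 (adjusted p = 0.858), none of them at the fold limit. With quantile normalization the difference of EPSCM from ES was 0.24 (adjusted p = 0.133). Mettl27, the gene on the other side of Cldn4, also stood lowest in ES, at 4.15 ± 0.161 FPKM against 7.60 ± 0.542 in 2iLIF and 6.32 ± 0.336 in EPSCM. The longest run of bases that the transcripts of Cldn3 and Cldn4 share is 35, so only fragments of 35 bases or fewer could match both genes exactly.

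Cldn6, a claudin of pluripotent cells and early embryonic epithelia, showed the largest difference of the 9 genes. Its libraries stood at 13.3, 12.3 and 12.2 FPKM in ES and at 12.7, 14.1 and 11.5 in EPSCM, against 1.69, 1.38 and 1.60 in 2iLIF. ES and EPSCM overlapped, and every 2iLIF library was far below both. Cldn6 fell in 2iLIF against ES by 2.41 on the log2 scale (SE 0.08, limma adjusted p = 3.51e-08) and was higher in EPSCM than in 2iLIF by 2.42 ± 0.08 (adjusted p = 3.57e-08). Only 0.827% of the tested genes had a lower difference in 2iLIF against ES. Between EPSCM and ES the difference was 0.02 ± 0.08 (adjusted p = 0.868), and its sign changed with several settings.

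Cldn9, which sits next to Cldn6 on chromosome 17 and is its closest relative among these claudins, was much less abundant. It stood at 0.643, 0.497 and 0.554 FPKM in ES, at 0.0566, 0.190 and 0.143 in 2iLIF and at 1.40, 1.39 and 1.39 in EPSCM. The media did not overlap. Cldn9 was higher in EPSCM than in 2iLIF by 1.08 ± 0.06 (limma adjusted p = 4.69e-07), a call that quantile normalization ended (0.81), and above ES by 0.61 ± 0.06 (adjusted p = 1.57e-05), so the pair Cldn6 and Cldn9 shared its low point in 2iLIF but not its level in EPSCM relative to ES. The 2iLIF values correspond to about 1.46 to 6.24 fragments per library, so the ratio of means to EPSCM is poorly set there. Transcripts of Cldn6 and Cldn9 share a run of at most 37 bases.

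The genes that flank the Cldn6 and Cldn9 pair did not share a single direction. Tnfrsf12a, the gene before Cldn6 and the receptor of the cytokine TWEAK, was higher in EPSCM than in 2iLIF by 1.31 (adjusted p = 7.62e-06), at 13.7 ± 1.72 FPKM against 4.91 ± 0.355. Pkmyt1, the gene after Cldn9 and a kinase that holds back mitosis, stood highest in 2iLIF, at 27.0 ± 2.06 FPKM against 17.8 ± 2.14 in ES and 22.6 ± 2.32 in EPSCM.

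Cldn7, a claudin that binds EpCAM at the basolateral membrane, was lowest in 2iLIF, between in ES and highest in EPSCM. Its libraries stood at 1.32, 1.40 and 1.30 FPKM in 2iLIF, at 4.33, 2.75 and 3.38 in ES and at 7.09, 8.55 and 7.21 in EPSCM. The media did not overlap. Cldn7 was higher in EPSCM than in 2iLIF by 1.88 ± 0.12 (limma adjusted p = 1.35e-06). Against ES it lay 0.95 ± 0.12 higher in EPSCM (adjusted p = 9.65e-05) and at -0.92 ± 0.12 in 2iLIF (adjusted p = 1.49e-04), both short of the fold limit. The first of these passed the limit without ES replicate 1 (1.08) and without the 3 libraries that stand apart (1.01), and the second without ES replicate 2 (-1.04); with pseudocounts of 0.1 and 0.5 both passed, at 1.12 and 1.04 and at -1.29 and -1.09.

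Cldn6 and Cldn7, which shared the low level in 2iLIF, also share a sequence feature that was noticed after the promoters had been read. Each has TGACGTCA, the palindrome bound by CREB and ATF factors, at nearly the same distance from a RefSeq start. Cldn5 and Tjp1, also lowest in 2iLIF, have no match in their windows, and neither has the window of the other Cldn7 start. The 30 bases around the palindrome are printed from GRCm38.p6, both on the plus strand, at chr17:23679314-23679343 for Cldn6 and chr11:69965372-69965401 for the second of the 2 Cldn7 starts, with the palindrome in capitals.
Cldn6: aggtggtccagTGACGTCAttgagacttta
Cldn7: tgtcccttcagTGACGTCAggtcactcgac
The palindrome lies at -40 to -33 from the start of Cldn6 and at -38 to -31 from that of Cldn7. It occurs in 1.55% of the 32851 promoter windows and, between 60 and 20 bases before the start, in 0.508%. Among the 9 genes the table held 9 windows for 7 genes, with none for Cldn9 or Cldn23. The motif AACCNGGTT of grainyhead-like factors, found in 0.240% of all windows, was in none of these 9, which says only that those letters are not there.

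Cldn5, the main claudin of brain endothelium, was low in all media. It stood at 1.26, 0.907 and 0.780 FPKM in ES, at 0.168, 0.259 and 0.260 in 2iLIF and at 1.31, 1.75 and 1.97 in EPSCM. All EPSCM libraries were above all ES libraries, by a narrow margin, and all ES libraries above all 2iLIF libraries. Cldn5 was higher in EPSCM than in 2iLIF by 1.11 ± 0.11 (limma adjusted p = 2.28e-05), a call that quantile normalization ended (0.81), and stood at -0.68 ± 0.11 in 2iLIF against ES (adjusted p = 5.58e-04). Its 2iLIF values rest on about 4.27 to 10.0 fragments per library. The 5 endothelial markers summed to 4.45 to 4.92 FPKM in ES libraries, 3.82 to 4.12 in 2iLIF and 6.64 to 8.15 in EPSCM. That sum had the order of Cldn5, but no single marker did: Tek (2.97, 1.78 and 2.11 FPKM in ES, 2iLIF and EPSCM), Cdh5 and Tie1 were highest in ES, and Vwf (1.12, 2.01 and 5.10) was lowest there. Of these, the defining genes Cdh5 and Emcn were at 0.0244 FPKM and listed at 0 in EPSCM, and the sum there was mostly Vwf and Tek, at 5.10 and 2.11. The 2 were the markers at or above 1 FPKM in each medium, and the part of these markers in the Cldn5 result was not tested.

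Cldn23, an atypical claudin, was not tested. It was listed at 0 in 5 of 9 libraries, among them all 3 of 2iLIF, at 0.0583 FPKM in ES replicate 2, and at 0.0272, 0.0435 and 0.0422 in EPSCM. The values above 0 correspond to at most 2.90 fragments, so no difference among the media was detectable at this depth.

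Ocln, the MARVEL-domain protein of the tight junction strand, and Tjp1, the scaffold below it, both stood highest in EPSCM. Ocln was at 1.527, 1.40 and 1.503 FPKM in ES, at 1.74, 2.03 and 1.43 in 2iLIF and at 3.07, 2.88 and 2.91 in EPSCM. ES and 2iLIF overlapped, and all EPSCM libraries lay above them, by 0.67 ± 0.08 over ES (limma adjusted p = 5.49e-05) and 0.54 ± 0.08 over 2iLIF (adjusted p = 2.80e-04). Marveld2, which encodes tricellulin, the relative of occludin at corners where 3 cells meet, is its neighbour on chromosome 13 and had the same order, at 0.789 ± 0.217, 1.11 ± 0.0517 and 2.01 ± 0.440 FPKM in ES, 2iLIF and EPSCM. Its difference of EPSCM from ES was 0.75 ± 0.12 (adjusted p = 3.76e-04).

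Tjp1 stood at 17.7, 20.4 and 20.3 FPKM in ES, at 14.5, 16.02 and 15.1 in 2iLIF and at 24.7, 21.0 and 24.8 in EPSCM. The media did not overlap, but the differences were small, at 0.26 ± 0.09 for EPSCM against ES (limma adjusted p = 0.0224), 0.59 ± 0.09 when EPSCM was set against 2iLIF (adjusted p = 2.30e-04) and -0.34 ± 0.09 for 2iLIF against ES (adjusted p = 0.00681). In each medium the library that stands apart held the lowest value of Tjp1 and the highest of Cldn4 and Cldn6. Without those 3 libraries the differences of Tjp1 were 0.27, 0.64 and -0.37 in the same order. With quantile normalization its difference for EPSCM against ES was 0.20 (limma adjusted p = 0.054). With libraries scaled to the same median ratio that difference was 0.16 (adjusted p = 0.0965). The summed primitive endoderm markers had the order of Tjp1, Cldn7 and Cldn9, at 2.46 to 2.87 FPKM in 2iLIF, 4.62 to 5.37 in ES and 7.95 to 8.42 in EPSCM over 6 genes, of which 1, 1 and 3 had a mean of at least 1 FPKM. Of the 3 that were tested, 2 were called higher and 1 lower in EPSCM than in ES, where 19.7% of all tested genes were called. Gata6 reached 1 FPKM only in EPSCM and Sox7 only in ES, so both were tested only because of the medium where they are high. Gata6 stood at 0.675, 0.258 and 3.17 FPKM in ES, 2iLIF and EPSCM and Gata4 at 0.817, 1.19 and 3.22, while Sox7 was at 2.79, 0.0422 and 0.0315. Pdgfra was at 0.242, 0.577 and 1.04, and Sox17 and Foxa2 stayed under 1 FPKM. The part of these markers was not tested.

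**Figure D2:**
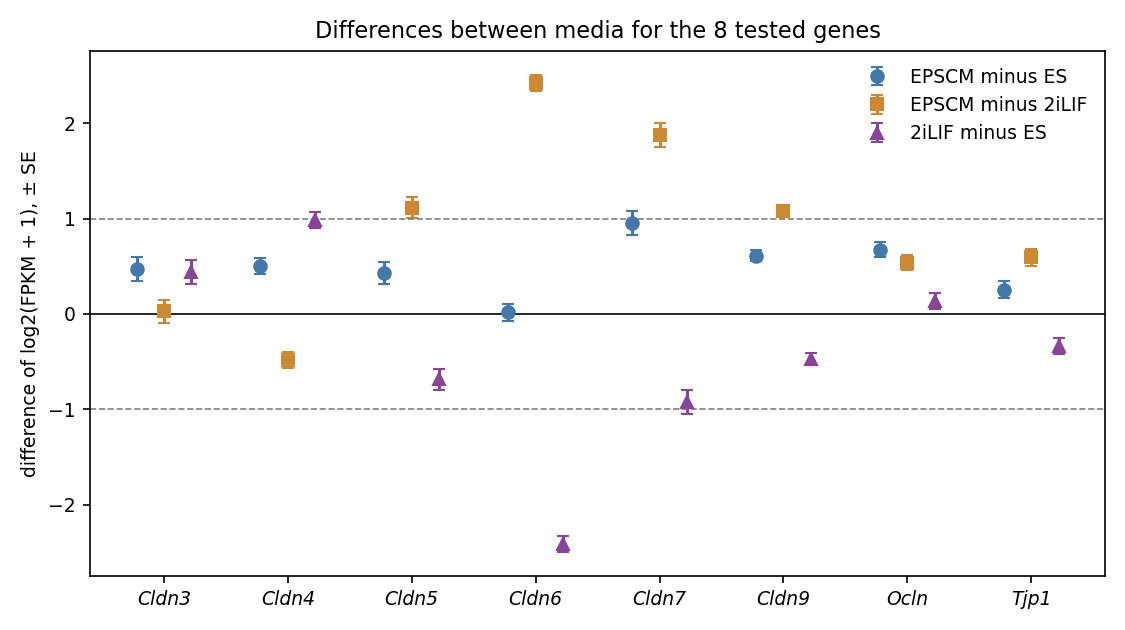
Difference of log2(FPKM + 1) between media (vertical axis, symbol = estimate, bar = 1 SE) for the 8 tested genes; dashed lines are the fold limit of 1 in size. Cldn6 stands at 2.42 for EPSCM minus 2iLIF and at -2.41 for 2iLIF minus ES but near 0 for EPSCM minus ES, and Cldn4 alone has a negative value for EPSCM minus 2iLIF.

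Counted as a list, the genes differed in how far each comparison moved them. In EPSCM against ES none of the 8 tested genes was called, while 19.7% of all tested genes were, 11.7% as higher and 7.97% as lower. An adjusted p under 0.05 at any difference was reached by 7 of the 8 in each comparison, against 73.1%, 68% and 67% of all genes in EPSCM against ES, EPSCM against 2iLIF and then 2iLIF against ES. Libraries did not overlap for 7 of the 8 in each, against 74.1%, 71.1% and 70.6%. In EPSCM against 2iLIF, 4 were called higher (Cldn5, Cldn6, Cldn7 and Cldn9) and 0 lower, where 16.1% of all tested genes were called, 10.1% as higher and 5.91% as lower. Without Cldn5 and Cldn9, which entered the test through the medium where they are high, 2 of 6 were called higher. In 2iLIF against ES only Cldn6 was called, as lower, beside 14.7% of all genes called in either direction, 7.62% as higher and 7.12% as lower. Without the same pair, 5 of 6 genes had an adjusted p under 0.05 and 5 of 6 did not overlap in each comparison. The median difference of the 8 was 0.49, 0.84 and -0.40 in these comparisons, and of the 6 it was 0.49, 0.56 and -0.10, against 0.09, 0.03 and 0.03 over all tested genes. The comparisons share libraries, so the fall of Cldn6 in 2iLIF enters both of those with 2iLIF.

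The summed FPKM of the 7 claudins was 59.4 to 68.2 in ES libraries, 88.1 to 100.5 in 2iLIF and 82.9 to 97.5 in EPSCM. The mean sum in EPSCM was 88.5 against 62.9 in ES, with a similar share of Cldn4, while the share of Cldn4 was larger in 2iLIF. Cldn4 made up 92.7% to 93.4% of the sum in 2iLIF, against 68.0% to 69.1% in ES and 69.3% to 70.0% in EPSCM. Cldn6 made up 19.5% to 20.7% in ES and 13.5% to 15.3% in EPSCM but 1.57% to 1.77% in 2iLIF. The share of Cldn7 was 4.63% to 6.35% in ES, 8.47% to 8.77% in EPSCM and 1.31% to 1.59% in 2iLIF. These 7 genes held 82.2% to 91.0% of the FPKM of all 32 claudin genes of the table in a library. Most of the remainder was Cldn12, at 9.76 ± 1.01, 8.77 ± 0.938 and 10.7 ± 0.445 FPKM in ES, 2iLIF and EPSCM, with no call in any comparison; 10 claudin genes were listed at 0 in every library.

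**Figure D3:**
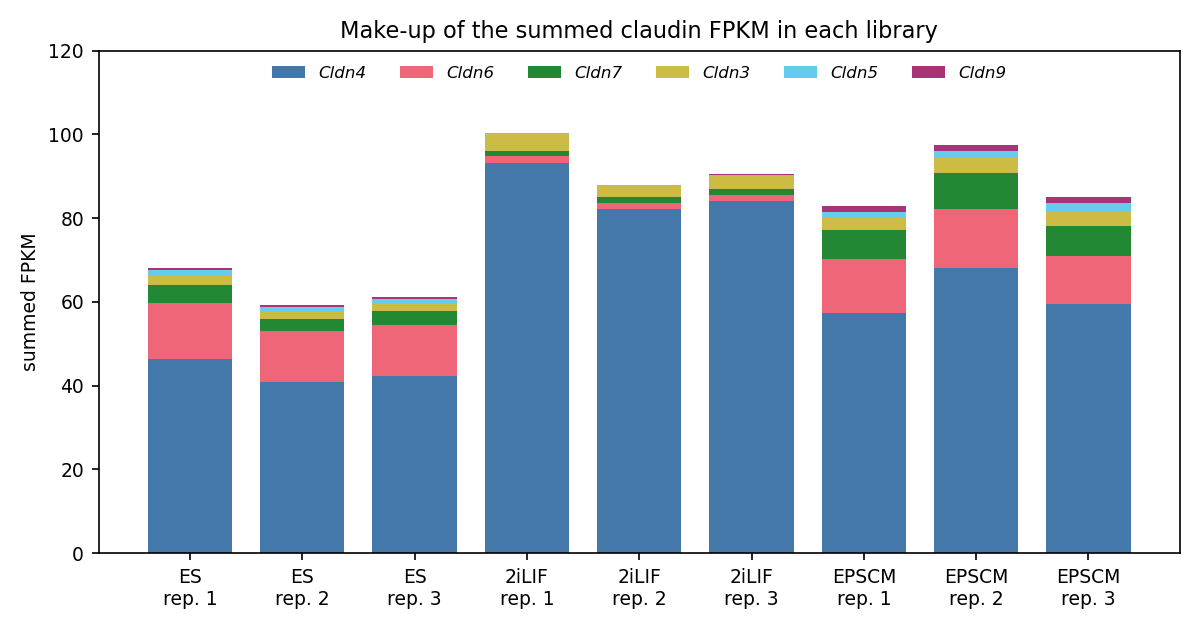
Summed FPKM of the claudins in each library (linear axis, 1 bar per library, stacked by gene; Cldn23, under 0.1 FPKM, is not drawn). Cldn4 fills nearly the whole bar in the 3 libraries of 2iLIF, whereas Cldn6 and Cldn7 are visible in all libraries of ES and EPSCM.

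Genes whose levels over the 9 libraries were most like those of a member, by Pearson's r of log2(FPKM + 1) among 8992 candidate genes, are given as a description; with 3 media such an r mainly reflects the media's means. For Cldn6 they were Mmp2, a matrix protease (r = 0.9995), Trp53i11 (r = 0.998) and Dnmt3a, the de novo DNA methyltransferase (r = 0.998), the last at 13.4, 1.85 and 12.6 FPKM in ES, 2iLIF and EPSCM. For Cldn4 they were Glmp, Syngr1 and Sh3tc1 (r from 0.998 to 0.999). Cldn7 was most like Sptbn4, Slc25a23 and Tnnt1, and Cldn9 most like P4ha2, Cyb561 and Ccng2. For Ocln, Cyct, Cidea and Yaf2 came first, for Tjp1, Ufsp2, Ccdc77 and Mael, for Cldn5, Tln2, Nmnat2 and Praf2, and for Cldn3, Tmem222, Pskh1 and Med26 (r from 0.947 to 0.960).

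Other tight junction genes were taken from lists chosen by function. Of 22 plaque proteins, 19 were tested: 3 were higher and 1 lower in EPSCM than in 2iLIF, 2 were higher and 2 lower in 2iLIF than in ES, and none was called in EPSCM against ES, where pseudocounts of 0.1 and 0.5 each gave 3 calls. The median differences were 0.41, -0.10 and 0.32 in that order, against 0.03, 0.03 and 0.09 over all tested genes. Of all tested genes, 16.1%, 14.7% and 19.7% were called in the same order. Cingulin (Cgn), which links ZO proteins to myosin and microtubules, was lowest in 2iLIF like Cldn6 but, unlike Cldn6, did not overlap between EPSCM and ES. It stood at 6.33, 5.56 and 5.45 FPKM in ES, at 0.873, 0.815 and 0.902 in 2iLIF and at 7.16, 8.20 and 7.67 in EPSCM, and fell in 2iLIF against ES by 1.86 on the log2 scale (limma adjusted p = 5.69e-08). Its relative paracingulin (Cgnl1) fell by 1.65 (adjusted p = 2.20e-08), to 0.549 ± 0.0546 from 3.86 ± 0.1001 FPKM, and was at 4.96 ± 0.140 in EPSCM. Mpdz, a protein of many PDZ domains, was higher in EPSCM than in 2iLIF by 1.05 ± 0.04 (adjusted p = 1.03e-07), a call that quantile normalization ended (0.75). Cgn, Cgnl1 and Mpdz reached 1 FPKM only in ES and EPSCM, so their testing depended on the media where they are high. Under a filter on a mean of 5 FPKM, the list had 0 higher and 1 lower in EPSCM against 2iLIF. In 2iLIF against ES that filter gave 1 higher and 0 lower. Amotl2 and Magi3 took the other direction, higher in 2iLIF than in ES by 1.86 ± 0.08 (adjusted p = 1.55e-07) and 1.09 ± 0.12 (adjusted p = 4.56e-05). Amotl2 stood at 12.2, 47.1 and 16.5 FPKM in ES, 2iLIF and EPSCM, and Magi3 at 1.71, 4.81 and 3.01. In EPSCM against 2iLIF, Amotl2 was called lower, at -1.46 ± 0.08 (adjusted p = 6.47e-07).

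Tjp3 (ZO-3), a scaffold related to ZO-1 and named after its values had been seen, stood at 3.97 ± 0.312, 3.04 ± 0.291 and 5.50 ± 0.572 FPKM in ES, 2iLIF and EPSCM, the order of Tjp1. Its differences were 0.39 ± 0.09 for EPSCM against ES (limma adjusted p = 0.00316), 0.69 ± 0.09 over 2iLIF (adjusted p = 1.00e-04) and -0.30 ± 0.09 in 2iLIF against ES (adjusted p = 0.0128), none at the fold limit.

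Of 14 other membrane proteins of the junction, 9 were tested. Their median differences were -0.22 for EPSCM against ES, -0.31 against 2iLIF, and 0.25 for 2iLIF against ES. Over all tested genes they were 0.09, 0.03 and 0.03. None of the 9 was called in EPSCM against ES, where 19.7% of all tested genes were. In EPSCM against 2iLIF and 2iLIF against ES, 16.1% and 14.7% of all tested genes were called. Jam2, Jam3 and Cxadr, adhesion proteins of the immunoglobulin family, were lower in EPSCM than in 2iLIF, at -1.35 ± 0.05, -1.38 ± 0.08 and -1.25 ± 0.07. Jam2 stood at 107 ± 3.80 FPKM in 2iLIF against 48.4 ± 1.19 in ES, and Jam3 at 20.9 ± 1.38 against 5.42 ± 0.428, both called (1.13 ± 0.05 and 1.77 ± 0.08). Lsr, the angulin that recruits tricellulin, took the other direction, at 14.9 ± 1.79, 7.43 ± 0.842 and 16.4 ± 1.94 FPKM in ES, 2iLIF and EPSCM, and was higher in EPSCM than in 2iLIF by 1.04 ± 0.11 (limma adjusted p = 3.75e-05). That call was lost without 2iLIF replicate 2 (0.98), without EPSCM replicate 2 (0.96) and with libraries scaled to the same median ratio (0.997). Esam, an adhesion protein of endothelium, fell in 2iLIF against ES by 1.20 (adjusted p = 7.34e-06). Esam reached 1 FPKM only in ES and in EPSCM replicate 2, so its testing depended on its high medium. F11r, or JAM-A, was at 32.2 ± 1.26, 34.4 ± 2.33 and 27.5 ± 1.13 FPKM and was not called.

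**Figure D4:**
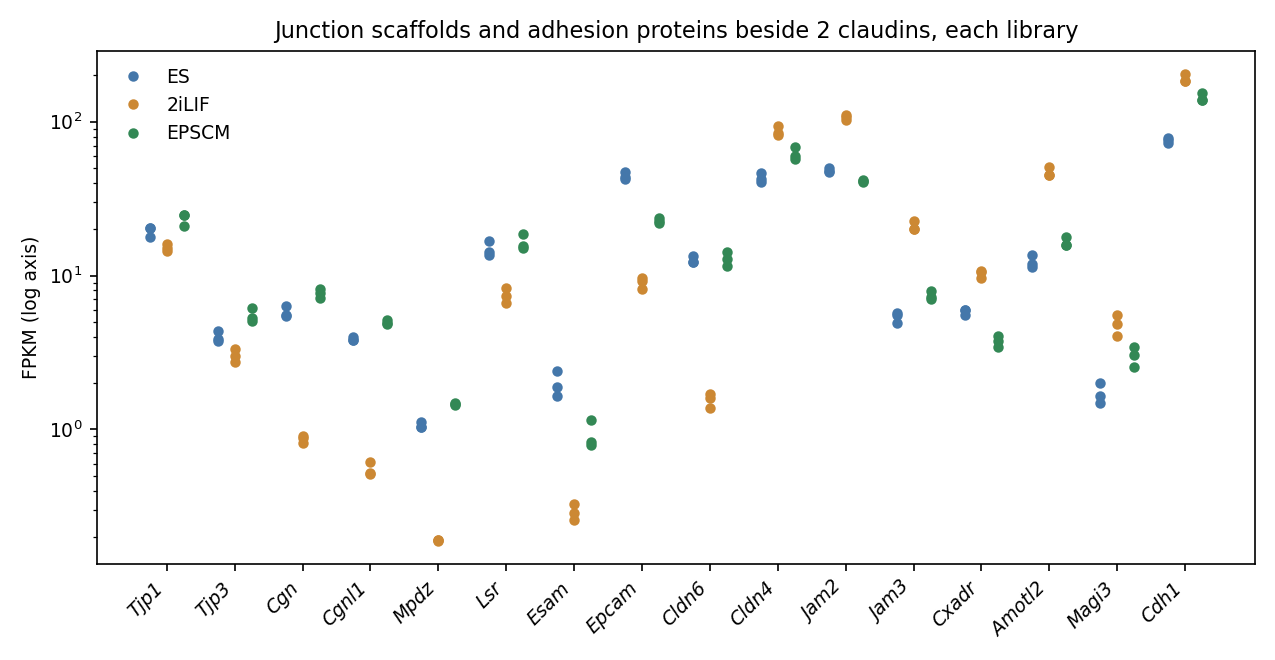
FPKM in every library (log axis, points = libraries, coloured by medium) of junction scaffolds, membrane proteins and E-cadherin beside Cldn6 and Cldn4. Cgn, Cgnl1, Mpdz, Lsr, Esam and Epcam have their lowest points in 2iLIF like Cldn6, while Jam2, Jam3, Cxadr, Amotl2, Magi3 and Cdh1 have their highest there like Cldn4. The genes drawn are a selection, most of them called between 2iLIF and another medium, so these patterns do not describe the whole lists.

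Of 6 genes of the EpCAM, matriptase and E-cadherin list, all tested, 1 was higher in EPSCM than in ES, 2 were higher in EPSCM than in 2iLIF, and 2 were higher and 2 lower in 2iLIF than in ES. In those comparisons 19.7%, 16.1% and 14.7% of all tested genes were called. One of the 2 that were higher in 2iLIF than in ES was Prss8, a protease that acts with matriptase, at 1.03 ± 0.10. That call was lost without 2iLIF replicate 1 (0.94), without ES replicate 2 (0.98), without the 3 libraries that stand apart (0.95), with quantile normalization (0.99) and with the same median ratio (0.995). Epcam, the adhesion protein that Cldn7 binds, stood at 47.0, 42.7 and 43.9 FPKM in ES, at 8.16, 9.63 and 9.22 in 2iLIF and at 23.6, 21.9 and 22.6 in EPSCM. It fell in 2iLIF against ES by 2.19 on the log2 scale (limma adjusted p = 2.15e-08) and was higher in EPSCM than in 2iLIF by 1.25 ± 0.07 (adjusted p = 5.35e-07). In contrast with Cldn7 it stood below ES in EPSCM, at -0.94 ± 0.07 (adjusted p = 2.74e-06), short of the fold limit but past it with the same median ratio (-1.04). St14, the protease matriptase that cleaves EpCAM, was higher in EPSCM than in ES by 1.11 ± 0.09, at 41.3 ± 4.17 against 18.5 ± 1.29 FPKM. In 2iLIF it stood at 36.2 ± 3.17 FPKM, overlapping EPSCM and above ES by 0.93 ± 0.09 (adjusted p = 2.06e-05), short of the fold limit. Spint2, an inhibitor of matriptase, fell in 2iLIF against ES by 1.42 (adjusted p = 1.97e-06), to 49.2 ± 4.67 from 133 ± 13.6 FPKM. E-cadherin (Cdh1) had the order of Cldn4, at 75.9 ± 3.01, 191 ± 11.4 and 143 ± 8.30 FPKM in ES, 2iLIF and EPSCM, and was higher in 2iLIF than in ES by 1.32 ± 0.07 (adjusted p = 2.63e-07).

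Of 16 transcription and splicing regulators known from epithelial junction genes, 13 were tested. In EPSCM, 2 were higher and 1 lower than in ES, and 2 and 2 than in 2iLIF. In 2iLIF, 1 was higher and 2 lower than in ES. Of all tested genes, 19.7%, 16.1% and 14.7% were called in those comparisons. Grhl2, an activator of Cldn4 and Cdh1 in epithelia, fell in 2iLIF against ES by 1.35 (limma adjusted p = 1.26e-07), at 2.06, 2.04 and 2.04 FPKM against 7.29, 6.47 and 6.57, opposite in order to Cldn4 itself. Grhl3 was higher in EPSCM than in ES by 1.41 ± 0.11 and than in 2iLIF by 1.11 ± 0.11, at 24.5 ± 2.85 against 8.57 ± 0.510 and 10.8 ± 1.55 FPKM. Esrp1, a splicing factor of epithelia, fell in 2iLIF against ES by 1.39, to 0.0636 ± 0.0429 from 1.79 ± 0.0822 FPKM, while its relative Esrp2 stood highest in 2iLIF, at 6.66 ± 0.347. Esrp1 reached 1 FPKM only in ES and in EPSCM replicates 1 and 2, so its testing also depended on its high medium. Snai1, a repressor of claudin and occludin genes, was at 2.48 ± 0.104, 4.52 ± 0.699 and 3.14 ± 0.428 FPKM in ES, 2iLIF and EPSCM and was not called in any comparison. Its difference of 2iLIF from ES was 0.66 ± 0.11 (limma adjusted p = 5.69e-04), short of the fold limit. Zeb1, another such repressor, was at 3.04 ± 0.258, 5.39 ± 0.379 and 5.42 ± 0.495 FPKM and was not called either. It lay above ES by 0.66 ± 0.08 in 2iLIF (limma adjusted p = 9.62e-05) and by 0.67 ± 0.08 in EPSCM (adjusted p = 7.22e-05). Twist1, a mesenchymal factor, was higher in EPSCM than in ES by 1.13 ± 0.10 (adjusted p = 9.37e-06) and than in 2iLIF by 1.31 ± 0.10 (adjusted p = 4.29e-06), at 0.751 ± 0.168, 0.543 ± 0.0125 and 2.84 ± 0.490 FPKM in ES, 2iLIF and EPSCM. Quantile normalization ended both calls (0.95 and 0.97). Twist1 reached 1 FPKM only in EPSCM, so it was tested only because of the medium where it is high.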

How the data were processed

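Per the submitters' processing notes, which name STAR, Cuffnorm and the build mm9 without their roles, the authors used these tools for the deposited FPKM values; the versions, the annotation, scaling between libraries and strand use are not given in the sources, and the library kit was stranded per the labels' protocols. FPKM divides by transcript length and library total, so low genes rest on few fragments. The table was fitted whole: log2(FPKM + 1), a filter of 1 FPKM in 3 or more libraries, limma 3.58.1 in R 4.3.3 with a mean per medium, a trended variance prior and Benjamini-Hochberg adjustment. The members and lists were chosen with earlier results of these data known. Named genes were all members, called genes of each list (up to 4 per comparison by size, at least 1 FPKM), a few fixed junction genes, flanking genes and the 3 most alike in pattern; not all are printed. Of the listed names, 5 were matched by a RefSeq synonym. Fragments were estimated from FPKM steps in genes with 1 GENCODE transcript; pairs of libraries of a medium had a chi-square per degree of freedom of 1.62 to 21.4 (1.62 to 2.91 without the libraries that stand apart), so none was counted as a duplicate. RefSeq and GENCODE (GRCm38) served for names, gene order, transcript sequence and promoters. The fit was checked on simulated data. A gene of the fixed lists is not reported here.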

Additional observations from a re-analysis of the deposited data

How the results depend on the processing

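Of 441 recomputed differences of the 8 tested genes, 177 could not move by construction (another filter or error model, or a library of the medium not compared left out). Of the other 264, 236 kept their direction and side of the threshold, 16 passed it, 2 lost it and 10 changed sign. These counts follow the call alone, so an uncalled difference whose adjusted p rose above 0.05 counts as kept. With quantile normalization this held in EPSCM against ES for Cldn3 (limma adjusted p = 0.133), Cldn5 (0.131) and Tjp1 (0.054). With the same median ratio it held there for Tjp1 (0.0965). The sign changes concerned values near 0: Cldn6 for EPSCM against ES (-0.0896 with quantile normalization, -0.0757 with the same median ratio, -0.0158 without the 3 libraries that stand apart, and -0.0536 to 0.0865 with 1 library left out, below 0 without EPSCM replicate 2 or ES replicate 3) and Cldn3 for EPSCM against 2iLIF (-0.15 with quantile normalization, -0.0112 with the same median ratio, and -0.0975 to 0.1577 with 1 library left out, below 0 without 2iLIF replicate 2, EPSCM replicate 2 or EPSCM replicate 3). The calls of Cldn6 and Cldn7 for EPSCM against 2iLIF and of Cldn6 for 2iLIF against ES held in every setting that tested them; Cldn9 for EPSCM against 2iLIF was lost with quantile normalization (0.81).

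Members called in EPSCM against ES numbered 2 with a pseudocount of 0.1, 1 with 0.5 and 1 without the 3 libraries that stand apart. In 2iLIF against ES they numbered 5 with 0.1, 3 with 0.5 and 2 with quantile normalization. In EPSCM against 2iLIF they numbered 2 with quantile normalization and 1 under a filter on a mean of 5 FPKM, where 3 members were tested. Leaving out 1 library gave 0 to 1 members called in EPSCM against ES, 4 to 4 in EPSCM against 2iLIF, and 1 to 2 in the third comparison. Over all genes, 2738 were called in 2iLIF against ES with a pseudocount of 0.1, against 1817; under the filter on a mean of 5 FPKM, 1532, 1025 and 1055 were called in the 3 comparisons, against 2423, 1979 and 1817, and fewer genes were tested there. Quantile normalization moved the share of calls that were higher from 59.4% to 49.5% in EPSCM against ES and from 63.2% to 52.8% in EPSCM against 2iLIF; it moved the median of all genes by less than 0.1. Over all settings the plaque list had 1 to 5 calls in EPSCM against 2iLIF and the other membrane list 3 to 5; in 2iLIF against ES the regulator list had 0 to 5 and the plaque list 1 to 5. For named junction genes outside the members, settings were chosen after seeing the data and run only where the adjusted p was under 0.05, which leaves out differences near 0; there 12 values passed the threshold and 16 lost it, most often Prss8 and Esrp2 in 2iLIF against ES. No paired analysis was possible because the labels number the libraries without a number shared between media.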
